A study of Mus musculus with 6 samples.

Results

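The complement genes described here are C1qa, C1qb, C1qc, C2, C3, Cfb, Cfp, C3ar1 and C5ar1, which are 9 of the 32287 features in the gene count matrix. They were chosen by name, as components and receptors of the complement system, and all 9 were found in the matrix. The cells came from the inguinal lymph nodes of Cd169Cre/+.Tdtomato fl/fl mice (CD169Tom mice), in which Cre is driven by Siglec1, so that any cell that has once turned on this gene keeps the red TOM label, as does its progeny. TOM therefore marks a history of Siglec1 expression and not present expression. CD11b hi TOM+ cells were sorted from 2 unimmunized mice and from 2 mice at day 9 after immunization with hen egg lysozyme, stained with 1 hashtag antibody per mouse, pooled, and run as 2 10X captures. In the paper's methods lysozyme was coupled to an ovalbumin peptide and given in Sigma Adjuvant System. The adjuvant of these immunized mice is not stated separately. All 4 mice carried the same alleles, and the mouse was the replicate. After filtering, 12139 cells remained, of which 2828 and 537 came from the unimmunized and 4052 and 4722 from the immunized mice, with median UMI counts of 5877, 6280, 9674 and 12727.5 per cell. A UMI is 1 counted RNA molecule, and CPM is the UMIs of a gene scaled by the total UMIs of its library. The 621 barcode sequences found in both captures, 1242 barcodes, were left out because the hashtag counts could not be tied to 1 capture.

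Complement is a cascade of plasma proteins that tags dying cells, microbes and immune complexes for uptake. In the classical pathway C1q, built from A, B and C chains, binds its target and activates the proteases that cleave C4 and C2, while the alternative pathway uses factor B, encoded by Cfb, and properdin, encoded by Cfp, to amplify the cleavage of C3. The fragments C3a and C5a signal through the receptors encoded by C3ar1 and C5ar1. Tissue macrophages are a known source of C1q outside the liver, and C1q bound to apoptotic cells promotes their clearance, which is the task of tingible body macrophages (TBMs) in the follicle.

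The C1q genes are neighbours in the genome, as are Cfb and C2, and the other 4 genes lie apart. In GRCm38 with GENCODE vM21 C1qb is at chr4:136880129-136886187, C1qc at chr4:136889804-136893065 and C1qa at chr4:136895917-136898803, all on the minus strand, with 3616 and 2851 bases between neighbours. Cfb at chr17:34856374-34862518 and C2 at chr17:34862604-34898265 are also on the minus strand and are 85 bases apart, so reads near their border could be counted for either gene. C3 is at chr17:57203970-57228136, C3ar1 at chr6:122847138-122856161, C5ar1 at chr7:16246743-16259540 and Cfp at chrX:20925454-20931555. Because the C1q chains moved together across classes (below), the sequence before 2 of them is shown, read from RefSeq on GRCm38.p6, minus strand, 5′ to 3′. Capitals mark ACTTCCT, the reverse complement of AGGAAGT, the core bound by ETS family factors such as PU.1 of macrophages.
C1qb, chr4:136886201-136886450: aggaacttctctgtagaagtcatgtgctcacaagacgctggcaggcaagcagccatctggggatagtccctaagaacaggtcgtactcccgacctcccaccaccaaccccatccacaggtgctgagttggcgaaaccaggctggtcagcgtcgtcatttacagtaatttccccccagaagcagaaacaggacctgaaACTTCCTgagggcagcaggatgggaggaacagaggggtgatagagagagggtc
C1qc, chr4:136893066-136893164: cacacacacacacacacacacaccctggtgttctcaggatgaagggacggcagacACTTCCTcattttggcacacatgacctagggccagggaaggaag
The match began 53 bases before the RefSeq start of C1qb and 195 bases before that of C1qc. Searched on both strands, AGGAAGT was found in the 250 bases upstream of 7.69% of 32851 promoters, and it also occurred at 2 places before the RefSeq start of C5ar1, both inside the C5ar1 interval given above. TTGCGNAA, a C/EBP site, was found before C3 only among the 6 members with a promoter entry, at 45 bases, and in 0.67% of all promoters. The interferon-stimulated response element core, found in 2.98% of promoters, and the NF-kB site, found in 0.356%, had no match in these windows. The letters were chosen after the sequences had been seen, and a match is a description only. C1qa, C2 and Cfb had no entry.

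Cells were sorted into 15 classes by marker genes that include no complement gene, and 6304 cells received a class. The names are rebuilt from markers and need not cover the cells the study gave the same names. Medullary sinus macrophage-like (MSM-like) cells were led by Cd209b, Marco and Ccl8, TBM-like cells by Pf4, Ms4a7 and Ccl12 beside the C1q genes, and cells called other macrophage-like by Mgl2 and Ly6a beside the C1q genes, with none of their gate markers among their 10 leading genes. Mertk, Axl and Adgre1, which the study detected in its putative TBMs, were gate markers of other macrophage-like cells and not of TBM-like cells. A difference between these classes is therefore not one between the study's putative TBMs and other macrophages. Of the cells kept, 4351 held at least 3 markers of more than 1 class and 2901 of none. The 5835 cells left without a class held 49.9% of all C1qa UMIs. The sort also held lymphocytes, which should not make C1q, and their values are given as the background. Counts were summed per mouse and class, giving 54 libraries of 14 classes with 25697 to 10632582 UMIs, and 10655 genes were tested.

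C1q was highest in macrophage classes of this sort. In TBM-like cells C1qa was at 2611 CPM in unimmunized mouse 1 and at 4685 and 4068 CPM in immunized mice 1 and 2, which is 3788 ± 1065 CPM (SD, n = 3) from 8, 34 and 61 cells. Unimmunized mouse 2 had only 4 TBM-like cells, at 5323 CPM, and was left out of the test. MSM-like cells held 1677 and 1833 CPM in the unimmunized and 1379 and 1557 CPM in the immunized mice. For C1qa the TBM-like libraries were thus above every MSM-like library. MSM-like and other macrophage-like cells overlapped, the latter having 992 and 1372 CPM in the unimmunized and 1407 and 1573 CPM in the immunized mice. For C1qb and C1qc the TBM-like and MSM-like libraries overlapped. The lowest TBM-like library held 1612 CPM of C1qb and 1079 CPM of C1qc, and the highest MSM-like library 1673 and 1333 CPM. Inflammatory macrophage-like cells, led by Nos2 and Ptgs2, came almost only from immunized mouse 2, where C1qa was at 595 CPM. Over the 12 macrophage libraries C1qa ranged from 595 to 4685 CPM, and over the 16 lymphocyte libraries from 11.2 to 244.7 CPM, so these ranges did not overlap. The highest monocyte or neutrophil library, at 946 CPM, and the highest dendritic cell library, at 997.5 CPM and described below, lay within the macrophage range, while the medians of these lineages were 139 and 41.9 CPM against 1565 CPM in macrophages.

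In the edgeR quasi-likelihood test of each class against the mean of the others, C1qa was higher in TBM-like cells by 4.66 on the log2 scale (SE 0.29, adjusted p = 2.0e-16), in MSM-like cells by 3.36 (SE 0.28) and in other macrophage-like cells by 3.36 (SE 0.26). C1qb followed with 4.10, 3.04 and 3.18, and C1qc with 4.53, 4.02 and 3.02, all past the threshold. Of the genes tested, 2.72% were higher in TBM-like, 15.4% in MSM-like and 9.39% in other macrophage-like cells, against 7, 5 and 8 of the 9 complement genes. Interferon-high monocyte-like cells, led by Ifit1 and Ifit3, were the only other class where the C1q genes passed as higher, by 1.16, 1.24 and 1.12. Their C1qa ranged from 101 to 946 CPM over 4 mice, and both unimmunized libraries lay within the lymphocyte range. The same held for C1qb and C1qc, and for C1qc immunized mouse 1 lay within that range too. The C1q calls of this class were kept in 17, 19 and 15 of 22 alternative runs. The C1q calls of the macrophage classes were kept in every alternative run that tested them. Over all 126 gene and class pairs 37 were higher and 25 lower, where 14.7% of all pairs tested were higher and 5.36% lower, and the median difference of the members was −0.43 on the log2 scale, against 0.08 over all pairs. Without unimmunized mouse 1 the counts were 17 and 2, over 12 classes instead of 14. TBM-like and neutrophil-like cells, with 7 and 3 of the 37 higher calls, then had no unimmunized library and were not tested. Without immunized mouse 2 the lower calls were 40.

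**Figure D1:**
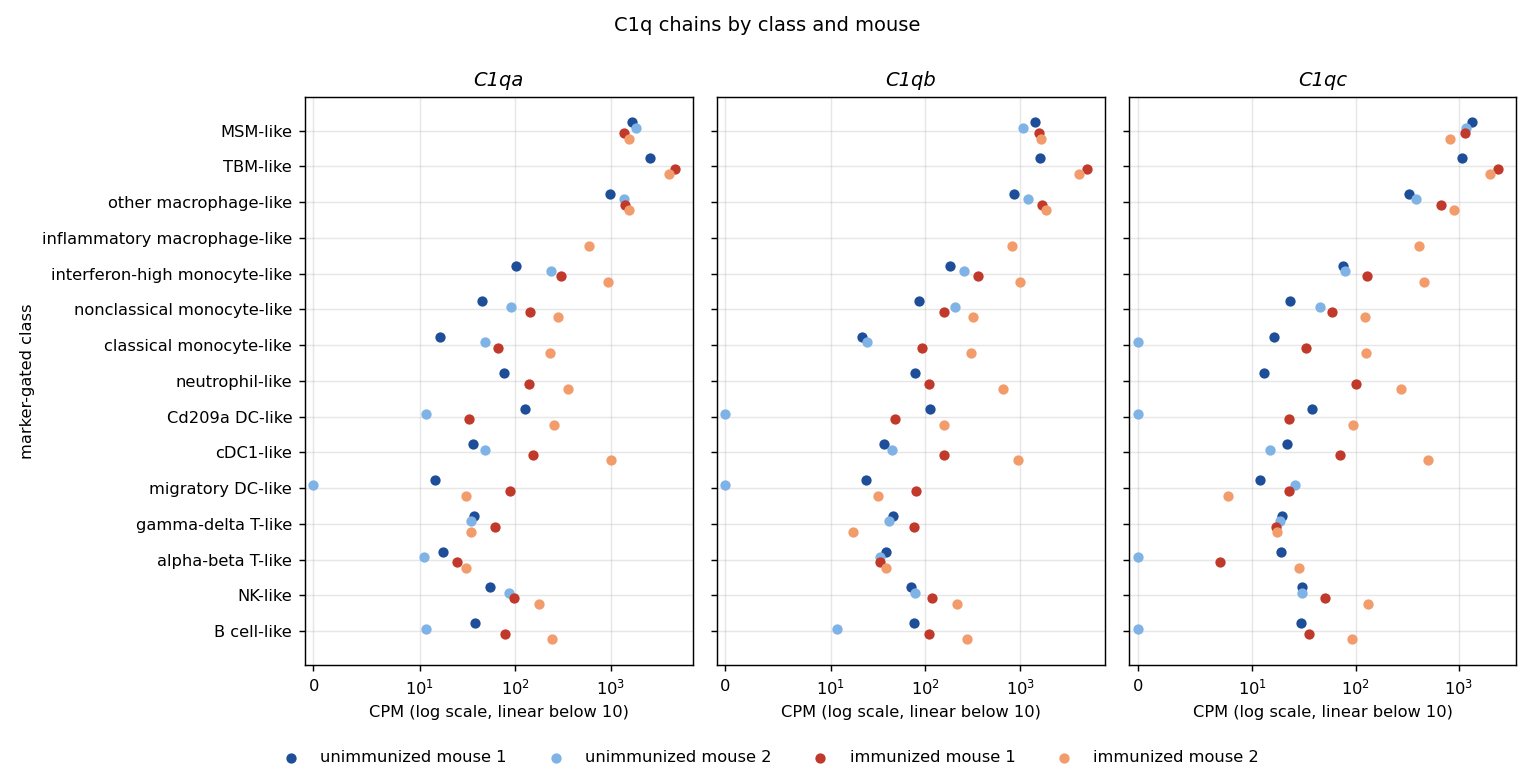
Level of the C1q chain genes (x axis, CPM on a log scale that is linear below 10) in each marker-gated class (y axis), with 1 point per mouse. The TBM-like, MSM-like and other macrophage-like points of C1qa lie between 992 and 4685 CPM, and those of the lymphocyte classes between 11.2 and 244.7 CPM.

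The share of cells with a C1q UMI set TBM-like and MSM-like cells apart less sharply than the C1qa level. After each cell was thinned to 1000 UMIs, C1qa was seen in 50% to 82.4% of TBM-like cells, in 61.5 to 72.7% of MSM-like cells and in 33.3 to 62.5% of other macrophage-like cells, and in 0 to 11.4% of the cells of lymphocyte libraries. Unthinned, the shares were 75.0 to 91.2% for TBM-like, 84.3 to 90.9% for MSM-like and 6.67 to 26.1% for lymphocyte libraries, whose median depths were 10925 to 16196, 1723.5 to 2602 and 3148 to 7603.5 UMIs. The MSM-like cells were thus the shallowest and still near the top. Unthinned, all 3 chains were detected together in 50%, 91.2% and 88.5% of TBM-like cells of unimmunized mouse 1 and immunized mice 1 and 2. The shares were 63.8 to 81.8% in MSM-like cells and 33.3 to 62.5% in other macrophage-like cells. The TBM-like range overlapped both of these. The MSM-like range lay above that of other macrophage-like cells, which were deeper, with medians of 9401 to 14022 UMIs.

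The share of each chain among the C1q UMIs was compared between classes, by an exact sign-flip test that could not pass with so few mice. Its smallest p is 0.125 with 4 mice and 0.25 with 3. In MSM-like cells C1qc made up 29.9%, 28.7%, 27.9% and 20.2% of the C1q UMIs in unimmunized mice 1 and 2 and immunized mice 1 and 2, and in other macrophage-like cells 15.1%, 12.8%, 17.9% and 20.8%. TBM-like cells held 20.3%, 19.9% and 19.7% in the 3 mice measured. The MSM-like share was 10.0 percentage points above that of other macrophage-like cells (SD 7.54, n = 4 mice) and higher in 3 of 4 mice, which did not pass (two-sided exact sign-flip test, p = 0.25, adjusted p = 0.375). Against interferon-high and nonclassical monocyte-like cells it was higher in 4 of 4 mice by 9.14 and 11.2 points, each at p = 0.125 in the exact test, the smallest p that 4 mice allow, and none of the 12 comparisons of shares passed after adjustment. In MSM-like cells of immunized mouse 2 the share rested on 11 cells.

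**Figure D2:**
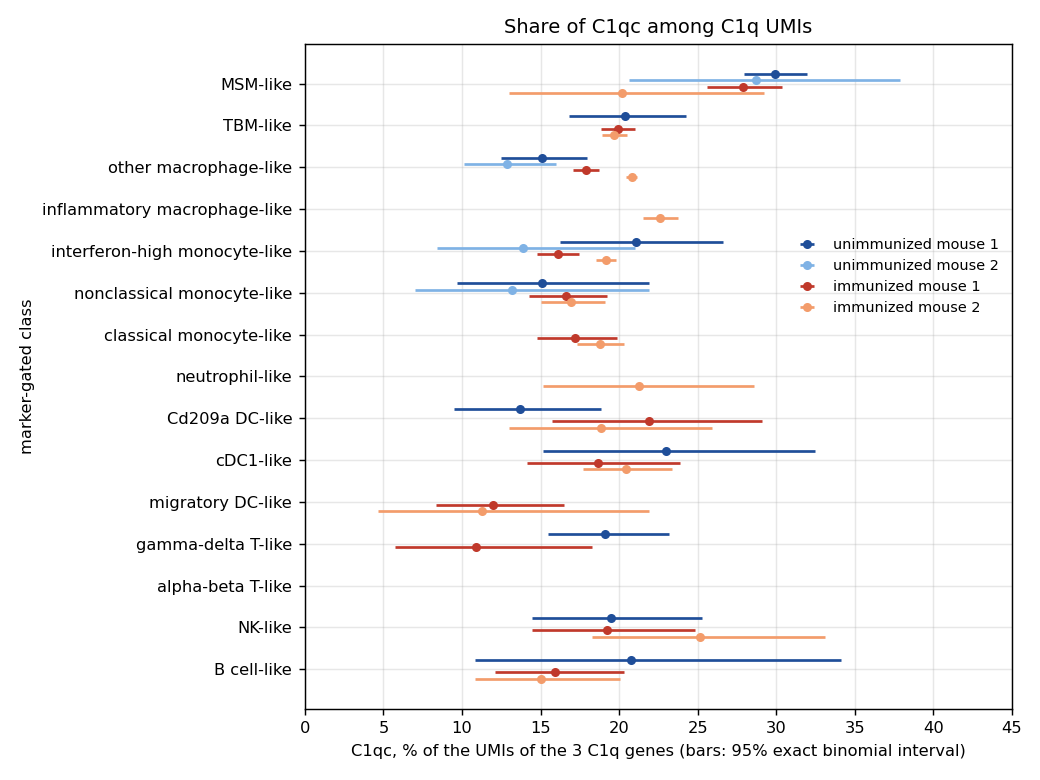
C1qc as a percentage of the UMIs of the 3 C1q genes (x axis) in each class (y axis), with 1 point per mouse for libraries with at least 50 C1q UMIs and bars for the 95% exact binomial interval, which covers counting error only. MSM-like cells reach 29.9% in unimmunized mouse 1, where other macrophage-like cells are at 15.1%.

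C3, the central component, passed as higher in 6 classes and Cfb of the alternative pathway in 5, while Cfp and each C1q gene passed in 4. In classical monocyte-like cells, led by Chil3 and Ly6c2, C3 was at 580.5 and 337 CPM in the unimmunized and 480 and 619 CPM in the immunized mice. Other macrophage-like cells had 470 and 198 CPM in the unimmunized and 577 and 705 CPM in the immunized mice, and the ranges overlapped. Inflammatory macrophage-like cells of immunized mouse 2 had the highest C3 level of any class, 994 CPM. C3 was higher than the mean of the other classes in classical monocyte-like (1.68 on the log2 scale), TBM-like (1.66), interferon-high monocyte-like (1.59), other macrophage-like (1.55), neutrophil-like (1.43) and nonclassical monocyte-like cells (0.73). It was lower in 6 classes, all dendritic or lymphoid, such as gamma-delta T-like cells (−1.57), but without unimmunized mouse 1 the differences in alpha-beta T-like and NK-like cells turned to 0.28 and 0.11. MSM-like cells were in neither group, with 171 and 70.5 CPM in the unimmunized and 261 and 272 CPM in the immunized mice, although they were among the highest for C1q.

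Cfb, the protease of the alternative C3 convertase, was highest among tested classes in interferon-high monocyte-like cells, at 293 and 296 CPM in the unimmunized and 769.5 and 687 CPM in the immunized mice (1.79 on the log2 scale against the mean of the others, adjusted p = 2.4e-10). Classical monocyte-like cells followed with 219 and 241 CPM in the unimmunized and 467 and 781 CPM in the immunized mice. It was also higher in nonclassical monocyte-like, neutrophil-like and other macrophage-like cells and lowest in Cd209a DC-like cells, where it was at 23.1 and 35.3 CPM in the unimmunized and at 39 and 13.1 CPM in the immunized mice. Cfp, which encodes the properdin that stabilizes the convertase, had a different order. TBM-like cells held 477, 513 and 405 CPM in the 3 mice measured, above every library of MSM-like cells, which had 255 and 106 CPM in the unimmunized and 273 and 311 CPM in the immunized mice. On the log2 scale against the mean of the other classes, Cfp was higher in TBM-like (2.32), other macrophage-like (1.57), MSM-like (1.41) and Cd209a DC-like cells (0.85). In Cd209a DC-like cells C3 and Cfb were lower by the same test (−1.42 and −2.58).

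**Figure D3:**
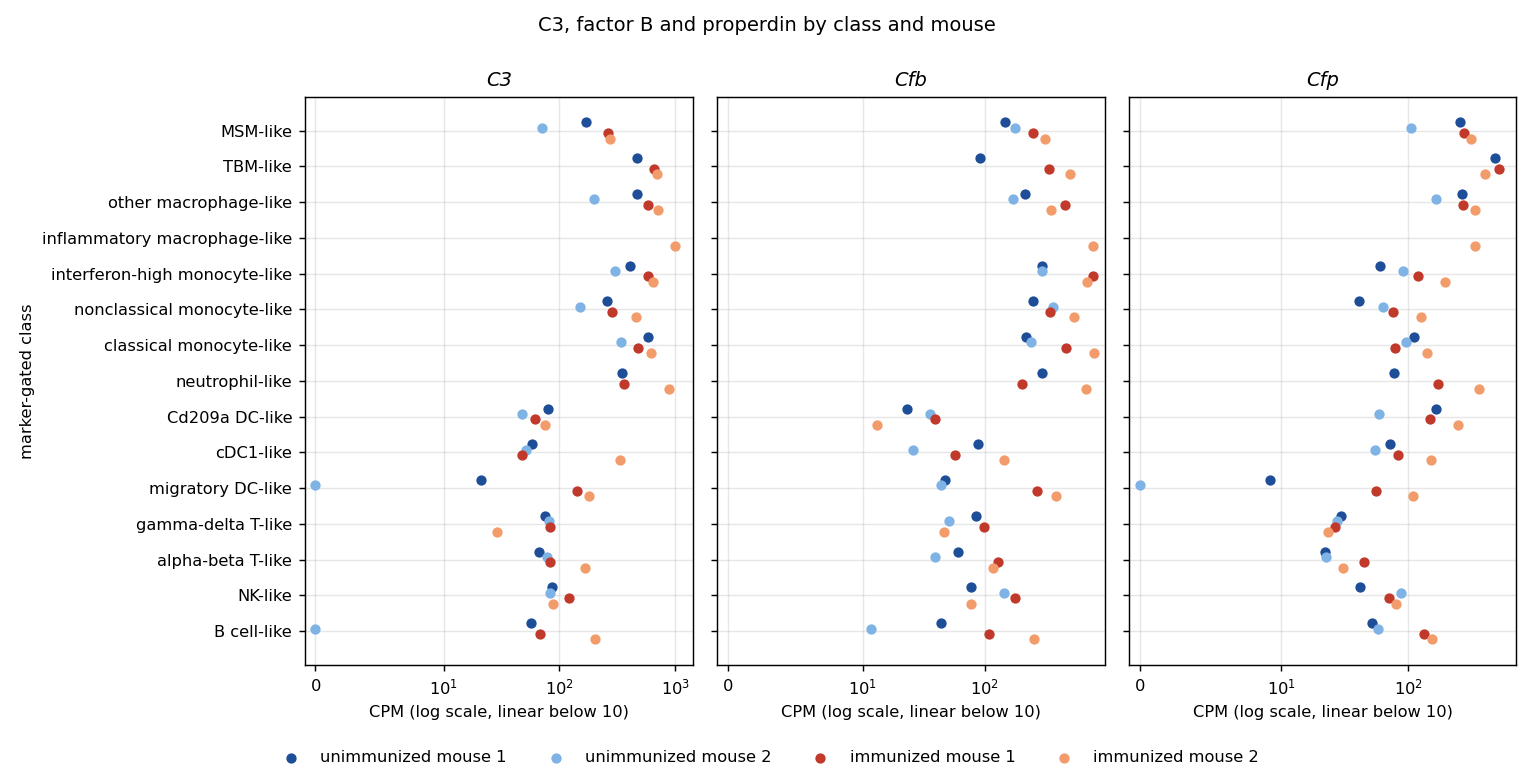
Level of C3, Cfb and Cfp (x axis, CPM on a log scale that is linear below 10) in each class (y axis), with 1 point per mouse. The C3 points of classical monocyte-like cells lie between 337 and 619 CPM and those of MSM-like cells between 70.5 and 272 CPM.

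Both receptor genes were higher in TBM-like and other macrophage-like cells, and their highest classes differed. C3ar1, the receptor for C3a, was at 68.1, 121 and 63.1 CPM in TBM-like cells, again from 3 mice, and between 19.2 and 38.6 CPM in other macrophage-like cells, with at most 1.46 CPM in any lymphocyte library. The difference was 5.95 on the log2 scale (SE 0.80) in TBM-like and 4.47 (SE 0.54) in other macrophage-like cells, and interferon-high monocyte-like cells also passed (1.92, adjusted p = 0.0445). The call in interferon-high monocyte-like cells, at 4.21 to 5.85 CPM, was kept in 13 of 22 alternative runs. In MSM-like cells 3 C3ar1 UMIs were counted in unimmunized mouse 1 and 0 in the other mice, which at this depth allows up to 105.8, 8.80 and 116.7 CPM (3 counts per library). C5ar1, the receptor for C5a, was highest in neutrophil-like cells, led by S100a9 and S100a8, at 320, 294 and 234 CPM in the 3 mice measured (5.64 on the log2 scale, SE 0.40). TBM-like cells held 34.1, 89.5 and 59.0 CPM of C5ar1, and nonclassical monocyte-like cells 27.2 to 33.6 CPM in 4 mice. These 2 classes and other macrophage-like and classical monocyte-like cells also passed as higher, by 2.81, 2.21, 2.15 and 1.91. In the same order, the calls were kept in 13 of 18, 22 of 22, 20 of 21 and 20 of 22 alternative runs.

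C2, the protease of the classical C3 convertase, was sparse. Among the classes, its highest libraries were those of MSM-like cells, with 7, 0, 4 and 1 UMIs in unimmunized mice 1 and 2 and immunized mice 1 and 2. In every library of another class it stayed at or below 11.6 CPM. It passed as higher in MSM-like (3.93 on the log2 scale, SE 0.80) and gamma-delta T-like cells (2.22, SE 0.70), both resting on few UMIs. In gamma-delta T-like cells the UMIs were 17, 2, 3 and 2 in the same order of mice. Cells without a class held 57.1% of all C2 UMIs. Pooled over mice, C2 was at 14.0 CPM in MSM-like cells. It was at 15.9 CPM in the cluster of 1170 cells described at the end, and at 141.6 CPM in the stromal cluster of 10 cells, there from 11 UMIs. High C2 was thus not particular to MSM-like cells.

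**Figure D4:**
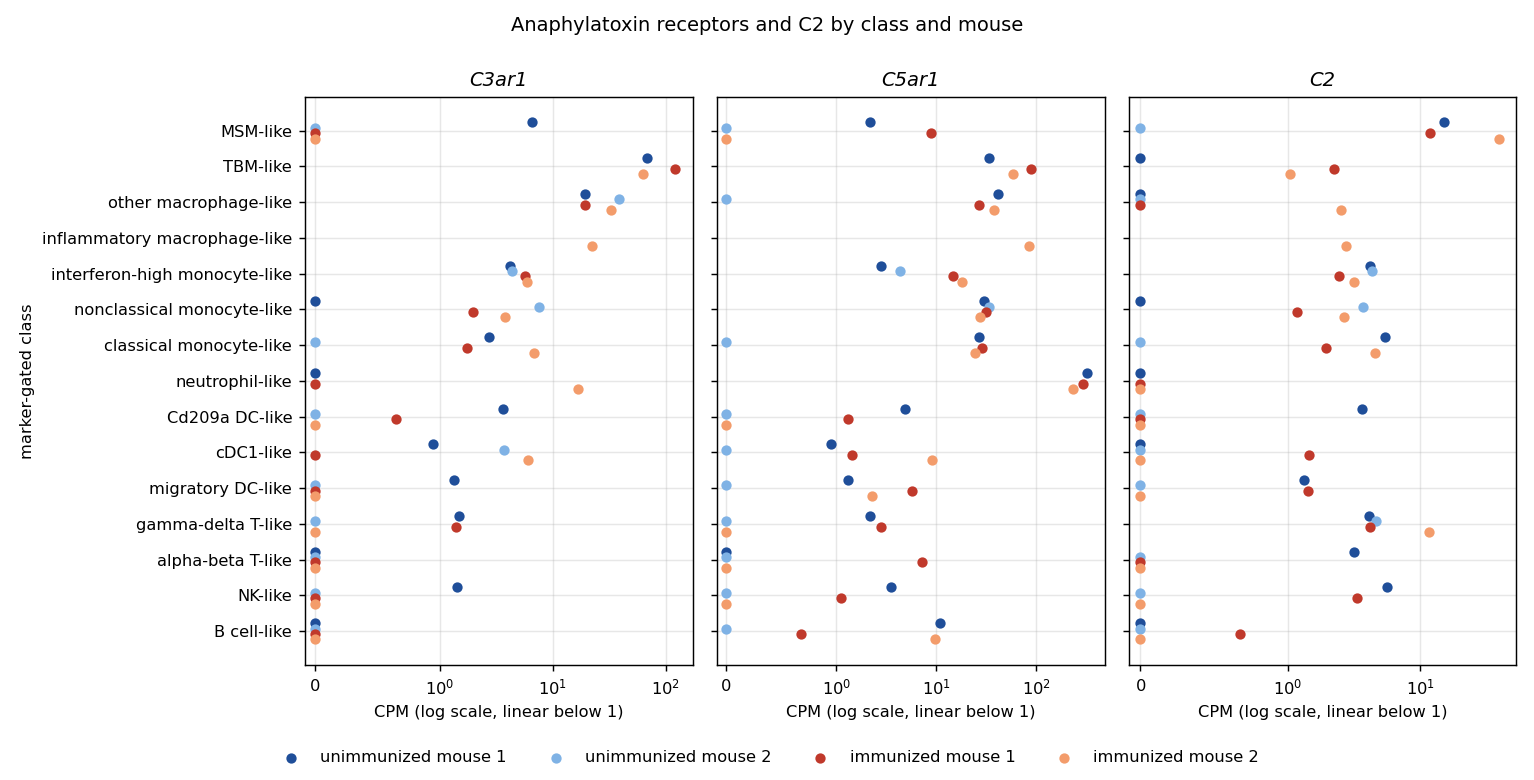
Level of C3ar1, C5ar1 and C2 (x axis, CPM on a log scale that is linear below 1) in each class (y axis), with 1 point per mouse. The C3ar1 points of TBM-like cells lie between 63.1 and 121 CPM and the C5ar1 points of neutrophil-like cells between 234 and 320 CPM.

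Of 42 further complement genes, fixed as a list of components, regulators and receptors, 16 were abundant enough to be tested. Over their 224 gene and class pairs 46 were higher and 17 lower, with a median difference of 0.01 on the log2 scale, where 14.7% and 5.36% of all pairs tested were higher and lower. In MSM-like cells Fcna, a ficolin of the lectin pathway, was higher by 6.68 and Cd55, which breaks up C3 convertases on the cell surface, by 4.47, while Cr1l, Itgax and Itgb2 were lower by the same test (−1.19, −1.93 and −1.14). In TBM-like cells Cd93, a receptor once linked to C1q, was higher by 4.31 and Calr, which binds C1q, by 0.95. In other macrophage-like cells C4b, the component cleaved after C1q binds, was higher by 2.26, C5ar2 by 2.63, Cd93 by 2.74, Calr by 0.64 and Itgam, Itgax and Itgb2, the chains of the C3 fragment receptors CR3 and CR4, by 1.62, 1.53 and 0.60.

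Across the 54 libraries, C1qa, C1qb and C1qc had the most alike levels of all pairs of these genes, with Pearson's r of 0.968 for C1qa and C1qb and 0.915 for each of the other pairs, on log2 CPM. C1qa and Cfp had r = 0.83 and C3 and Cfb r = 0.807. Among the 5 genes that followed the mean of the C1q genes most closely were Prxl2b (r = 0.801), Prdx1 (0.796), Pla2g4a (0.789) and Clec4n (0.788). For C3 the closest genes were Lyz2, the lysozyme of myeloid cells (0.902), Prdx5 (0.878) and Lilrb4a (0.867), and for Cfb Prdx5 (0.869), Cebpb (0.822) and Sod2 (0.819). C5ar1 was closest to Pilra (0.842), Csf3r (0.827) and Fpr2 (0.813), of which the last 2 are receptors of neutrophils. The closest to Cfp were Camk1 (0.767), Unc93b1 (0.759) and Tifa (0.755), to C3ar1 Acp2 (0.743), Hexa (0.726) and Itm2b (0.703), and to the sparse C2 Nme2 (0.628), Ndufs5 (0.627) and Mrpl20 (0.611). The cells of all mice were pooled before capture, so all libraries share the captures and their free RNA. Libraries of 1 mouse also come from the same animal, and libraries of 1 class share their markers, so these values are descriptions.

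In the sort as a whole, 8 of the 9 genes were higher in both immunized mice than in both unimmunized mice. C1qa was at 160 and 250 CPM in the unimmunized and 397 and 999 CPM in the immunized mice, C3 at 189 and 144 against 369 and 645 CPM, and Cfb at 135 and 184 against 433 and 573 CPM. C2 was the exception, at 5.70 and 3.67 CPM in the unimmunized and 2.28 and 2.84 CPM in the immunized mice. None of the groups overlapped, and with 2 mice against 2 the two-sided exact permutation test gave p = 0.333 for each gene, the smallest it can give. Among 11949 genes of at least 1 CPM on average, 16.9% were higher in both immunized mice. These levels move with the mix of classes, which differed between mice. Other macrophage-like cells, for example, numbered 36 and 16 without and 190 and 730 with immunization. For the sort as a whole, more cells of a class and more RNA per cell cannot be told apart.

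Within the macrophage classes no difference in C1q with immunization passed the test. In MSM-like cells the difference in C1qa between immunized and unimmunized mice was −0.21 on the log2 scale (SE 0.62) and in other macrophage-like cells 0.46 (SE 0.58), and no complement gene passed the test in either class. In both classes a rise of 1 on the log2 scale lay within 2 standard errors of the C1qa value. In other macrophage-like cells C1qb differed by 0.90 (SE 0.58), C1qc by 1.27 (SE 0.58), C3 by 1.00 (SE 0.47) and Cfb by 1.17 (SE 0.43), the last 3 with an unadjusted p under 0.05. In edgeR without a filter on low counts, C1qc (adjusted p = 0.0015), C3 (adjusted p = 0.0368) and Cfb (adjusted p = 0.0128) passed in these cells. With 1 immunized mouse left in the fit, C1qc differed by 1.46 without immunized mouse 1, and Cfb by 1.42 without immunized mouse 2. The TBM-like class was not in this test, which took classes with libraries from all 4 mice. In the fit without unimmunized mouse 2, where unimmunized mouse 1 stood alone, C1qa differed by 1.11 (SE 0.90) and Cfb by 2.59 (SE 0.83) in TBM-like cells. The 4 TBM-like cells of unimmunized mouse 2 held more C1qa than those of either immunized mouse, as given above. The sign for C1qa thus rests on which unimmunized mouse is used.

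Across 12 classes with all 4 mice, 85 of 108 pairs of a complement gene and a class had a positive difference, with a median of 0.75 on the log2 scale, where 50.9% of all pairs tested were positive, with a median of 0.01. Of the 192 pairs of the 16 further genes tested, 91 were positive. Cfb was positive in 12 of 12 classes and C1qa in 11 of 12. The lymphocyte classes, given as the background, are among the 12. Their median differences over the 9 genes were 1.69 in B cell-like, 0.83 in alpha-beta T-like, 0.56 in NK-like and 0.26 in gamma-delta T-like cells. In MSM-like and other macrophage-like cells the medians were 0.33 and 0.90. Of the 108 pairs 31 had an unadjusted p under 0.05, 5 of them in B cell-like cells, against 6.47% of all pairs tested. After adjustment over all genes 6 pairs were higher in immunized mice and 0 lower, against 0.0368% and 0.0735% of all pairs tested, and DESeq2 called 7. The pairs were C1qa, C1qb and C1qc in type 1 dendritic cell-like (cDC1-like) cells, which were gated with Xcr1 and Clec9a, and C3, Cfb and Cfp in migratory DC-like cells, gated with Ccr7 and Fscn1. Leaving out either unimmunized mouse lost these calls, and leaving out either immunized mouse gave more calls than the full fit. Those fits held 1 mouse in a condition and other sets of genes. The shares of all pairs given above belong to the main run only, so whether all genes gained calls alike is not given here. With the mouse as a block 3 pairs passed, Cfb in migratory DC-like, interferon-high monocyte-like and classical monocyte-like cells.

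**Figure D5:**
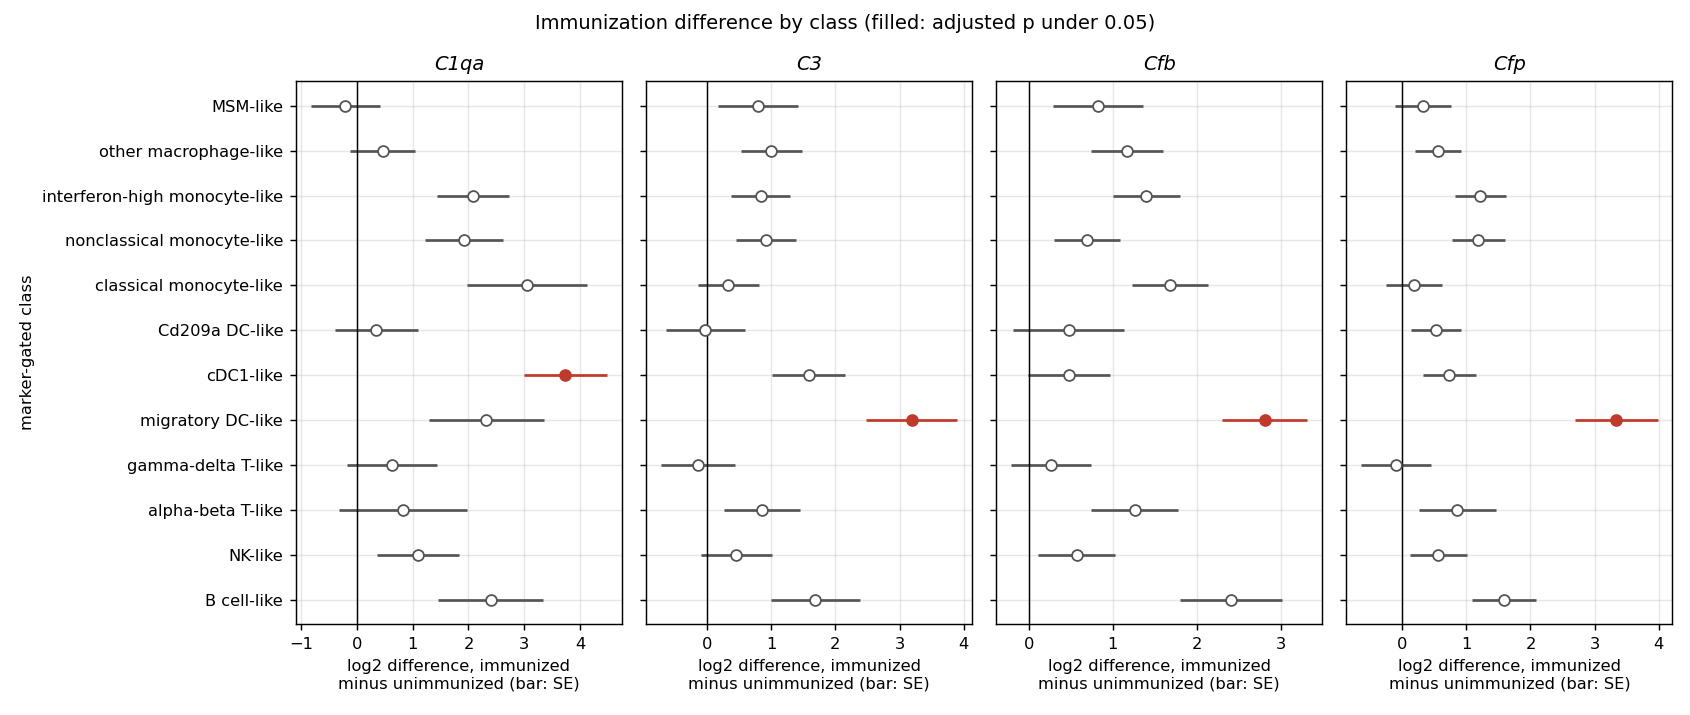
Difference between immunized and unimmunized mice (x axis, log2) for C1qa, C3, Cfb and Cfp in each of the 12 classes with all mice (y axis), with bars for the standard error and filled points for an adjusted p under 0.05. In migratory DC-like cells the difference is 2.81 for Cfb, and in MSM-like cells −0.21 for C1qa.

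In cDC1-like cells C1qa was at 36.0 and 47.8 CPM in the unimmunized and 152 and 997.5 CPM in the immunized mice, a difference of 3.74 on the log2 scale (SE 0.75, adjusted p = 0.0257). The counts came from few cells. In immunized mouse 2, 10 of 18 cells held 332 C1qa UMIs, 84.9% of them in 3 cells, and in immunized mouse 1 a single cell held 80 of 106. Clustering that did not use the complement genes placed 124 of the 139 cDC1-like cells in a cluster with the same markers. All cells of the unimmunized mice were among them. The 10 cells of immunized mouse 2 outside that cluster had 1939 CPM of C1qa and 99.4% of the mouse's C1qa UMIs in the gate, and the 8 cells inside it had 12.3 CPM. Immunized mouse 1 differed, with 96.2% of its C1qa UMIs in the 35 cells inside the cluster, at 162 CPM. By capture, the adjusted p of C1qa was 0.0011 in capture 1 and 0.649 in capture 2.

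In migratory DC-like cells Cfb was at 47.5 and 43.4 CPM in the unimmunized and 268 and 381.5 CPM in the immunized mice, a difference of 2.81 (SE 0.51, adjusted p = 0.0026). C3 was at 21.1 and 0 against 143 and 181 CPM (3.19, adjusted p = 0.0302) and Cfp at 9.24 and 0 against 55.4 and 109.5 CPM (3.34, adjusted p = 0.0078). In both immunized mice the cells that clustering placed outside the migratory DC-like cluster carried most of the counts. They were 20 and 12 of the 138 and 71 gated cells of immunized mice 1 and 2, and they held 72.6% and 79.4% of the C3, 81.7% and 61.2% of the Cfb and 70.5% and 93.8% of the Cfp UMIs. Inside the cluster Cfb was at 29.3 and 43.4 CPM in the unimmunized and 59.1 and 183 CPM in the immunized mice. In capture 2 alone the adjusted p of Cfb was 0.111, and capture 1 alone could not be tested.

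With the dendritic gates limited to cells inside a cluster of the same name, a check added after these values had been seen, 0 of the 108 pairs passed in edgeR. The differences were then 1.52, 1.58 and 1.45 for C1qa, C1qb and C1qc in cDC1-like cells (adjusted p = 1.0 each) and 1.41, 1.92 and 1.14 for C3, Cfb and Cfp in migratory DC-like cells (adjusted p = 0.786, 0.381 and 0.886). Markers of some other classes moved with these results in the full gates. The 8 markers of other macrophage-like cells summed to 52.1 and 25.8 CPM in the cDC1-like cells of the unimmunized and 76.2 and 330.5 CPM in those of the immunized mice, with Mertk at 0 in unimmunized mice 1 and 2 and immunized mouse 1. In migratory DC-like cells they summed to 40.9 and 34.7 against 63.2 and 81.3 CPM, the 7 classical monocyte-like markers to 139.9 and 34.7 against 266 and 280 CPM, and the interferon-high monocyte-like markers to 44.9 and 26.0 against 112 and 131 CPM. The MSM-like markers went the other way in cDC1-like cells, from 63.4 and 47.8 CPM to 25.9 and 6.01 CPM, and in migratory DC-like cells they were at 10.6 and 60.8 against 7.11 and 10.2 CPM. The part of such cells in the result was not tested, and with 217 likely doublets left out the 6 pairs still passed.

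The response to immunization was also compared between classes. In the edgeR test of each class against the mean effect in the others, 0 of 108 pairs passed, 9 had an unadjusted p under 0.05, and DESeq2 called 1, C3 in migratory DC-like cells. Without a filter on low counts 7 pairs were higher and 3 lower. The difference in effect with the smallest p that edgeR gave was Cfp in migratory DC-like cells, 2.64 on the log2 scale (SE 0.68, adjusted p = 0.424). Of all pairs tested 0.00235% passed after adjustment in the main edgeR run, and the share with an unadjusted p under 0.05 is not given here. Among the 42 further genes, C4b was higher in the interferon-high monocyte-like cells of immunized mice by 3.34 on the log2 scale (adjusted p = 0.0010) and Clu, an inhibitor of the terminal pathway, was lower in their migratory DC-like cells (−1.90, adjusted p = 0.0091).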

How the data were processed

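The authors aligned the reads to mm10 with Cell Ranger 4.0.0, combined the captures with its aggregation step and counted antibody tags with CITE-seq-Count. They deposited UMI counts per gene and cell and tag counts per cell, both not normalized. Whether aggregation thinned the captures to one depth was not given in the sources read. Of 18662 barcodes, sequences seen in both captures were dropped, as were cells over 25% mitochondrial UMIs, and 12139 were kept because 1 hashtag held at least 80% of at least 10 hashtag counts. The 4 mice held 18943001, 3817845, 39020653 and 61983132 UMIs.

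A cell was gated to a class with at least 3 markers of it and a weighted marker score at least 1.25 times that of the next class, and the dendritic gates also needed their defining genes. Several gate rules were tried. The defining genes were added after the immunization results of the members under an earlier gate had been seen, and that gate is kept as an alternative. The members and gene lists were chosen with earlier results of these data known.

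Counts were summed per mouse and class (at least 5 cells) and tested with edgeR 4.0.16 quasi-likelihood fits (TMM, filterByExpr, R 4.3.3), each class against the mean of the others, immunized against unimmunized within a class, and each class's effect against the mean effect of the others. P-values are two-sided with Benjamini-Hochberg adjustment over all genes within a class and contrast, at 0.05, and standard errors belong to the fitted log2 difference. Immunization was tested in the 12 classes with all 4 mice. Named genes were the 9 members, any of the 42 further complement genes past the threshold in a contrast given, and the genes with the highest Pearson's r over libraries, 5 for the mean of the C1q genes and 3 for each other member, among genes whose mean log2 CPM reached 4, of which 1 is not reported here. Shares of cells with a UMI were computed after thinning to 1000 UMIs, which left out 11 cells. Intervals cover counting error only. Clustering used Leiden at resolution 1.5 (scanpy 1.11.5, leidenalg 0.10.2) without complement genes. DESeq2 1.42.0, the mouse as a block and HTODemux of Seurat 5.3.0 were alternatives. Other normalization, filters, gates and captures and the leaving out of each mouse were run too. The block was fitted in edgeR between classes and for the difference in response, and with limma 3.58.1 (duplicateCorrelation) for immunization. The test was run on simulated counts after a first look at the fit. At 9245 genes it recovered 61% of simulated 8-fold and 15% of 4-fold changes with immunization in migratory DC-like cells, and 93% and 67% of those between TBM-like and other classes. The simulation gave all genes the same dispersion, set above the common dispersion of the real fit (0.0303). It changed only well-expressed genes and held no other difference between classes. The rates describe that setting and are not the sensitivity for the members. The mouse pairs libraries of different classes, since each mouse gave a library to nearly every class.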

Additional observations from a re-analysis of the deposited data

Results flagged for a closer look

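Groups of 4 mice were taken if the library with most UMIs of the gene held at least 10, a minimum added after a first run without it. Of 83 such groups, 12 held 1 mouse far from the other 3 by Dixon's criterion. Its cut-off is passed by about 1 in 20 groups of 4 normal values of equal spread. The libraries here differed in size and some groups shared the same cells, so an excess over chance was not measured. The library set apart need not be the one with most UMIs. In cDC1-like cells this was immunized mouse 2, with C1qa at 997.5, C1qb at 943.4, C1qc at 498.7 and C3 at 330.5 CPM, from the cells described above. The same mouse stood apart for C1qc in interferon-high monocyte-like cells (459.9 CPM), C2 in other macrophage-like cells (2.54 CPM), C3 in gamma-delta T-like (29.0 CPM) and alpha-beta T-like cells (166.2 CPM) and C2 in gamma-delta T-like cells (11.6 CPM). Its gamma-delta T-like library held only 23 cells, and the C2 value there rested on few UMIs. Immunized mouse 1 stood apart for C1qa in gamma-delta T-like cells (61.5 CPM) and C3 in NK-like cells (121.7 CPM). Unimmunized mouse 2 had no C5ar1 UMI in classical monocyte-like cells (0 CPM), a library of 5 cells and 41512 UMIs. At that depth a 0 cannot be told apart from the highest level of this class, 28.6 CPM. Among cells outside the gates, a cluster of 10 cells led by Ccl21a, Enpp2, Cxcl13 and Clu, genes of lymph node stroma, held 6615 CPM of C3, and 9 of its cells came from unimmunized mouse 1. A cluster of 1170 cells led by Prg3, Il22ra2 and Cd200 held 578.4 CPM of Cfb, with 388 and 369 CPM in the unimmunized and 663 and 618 CPM in the immunized mice, and 0 C3ar1 UMIs.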

How the results depend on the processing

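Between classes, 22 of the 62 called pairs kept their call in every alternative run that tested them. The 37 higher calls became 17 to 37 when a mouse was left out, with 17 without unimmunized mouse 1. That run did not test TBM-like and neutrophil-like cells, which held 7 and 3 of the 37. The 25 lower calls became 39 without a filter on low counts, 15 in capture 2 alone and 2 to 40 with a mouse left out, with 2 without unimmunized mouse 1 and 40 without immunized mouse 2. With the mouse as a replicate block they were 37 and 33. Of the immunization calls 0 of 6 was kept throughout. The counts of the alternative runs are of the members alone, without the share of all pairs called in the same run. Without a filter the calls also took in B cell-like cells. The count was 30 without a filter, 3 with the replicate block (Cfb in migratory DC-like cells and 2 monocyte classes), 0 with HTODemux, 2 with 4 markers, 1 with Leiden clusters as classes, 3 with at least 2000 UMIs, 5 in capture 1 alone and 0 in capture 2 alone, 0 to 27 with a mouse left out (0 without either unimmunized mouse, 27 without immunized mouse 1) and, by alternatives chosen after seeing the data, 3 with no margin, 3 with a margin of 1.5, 10 with no defining genes and 0 inside the dendritic clusters. For the difference between classes in response, 7 higher and 3 lower pairs passed without a filter, 1 higher with DESeq2, and 0 to 7 higher and 0 to 2 lower with a mouse left out. Reversed between classes were C3 in migratory DC-like cells with no defining genes (0.029) and, without unimmunized mouse 1, C3 in alpha-beta T-like (−1.16 to 0.28 over the mice left out) and NK-like (−1.30 to 0.11) and Cfp in NK-like cells (−0.97 to 0.26). With Leiden clusters as classes the immunization difference in migratory DC-like cells was −0.040 for C3 and −0.54 for Cfp. Thinned to 2000 UMIs, C1qa was in 85.0% of MSM-like cells on average, against 68.7%. The cause of these changes was not tested. RLE and DESeq2 turned no called direction, although they moved the median of all genes by up to 0.34 and 0.70 between classes. With 2 mice a condition, few cells in dendritic and MSM-like classes and depth that rose with immunization, small changes were not detectable. Larger changes could be missed too. In the simulation, with its own setting, 15% of 4-fold changes with immunization were recovered in migratory DC-like cells.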

Other observations

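Clustering without the complement genes gave cells rich in C1q that carried no class name. No cluster took the name other macrophage-like, so 0 of the 972 cells of that gate lay in a cluster of its name. That class is therefore missing from the run with Leiden clusters as classes. Of the TBM-like gate 65.4% of cells lay in the cluster of its name. A cluster of 784 cells led by Mgl2, Ly6a and Iigp1 held 1269 CPM of C1qa, and one of 650 cells led by C1qa, C1qb, Pltp and Lyz2 held 1223 CPM. The TBM-like cluster of 437 cells held 3644 CPM and the MSM-like cluster of 479 cells 1729 CPM. A cluster of 413 cells led by Bcl2a1b, Cfb and Cxcl9 held 986 CPM of Cfb. These are pooled values over mice, with no test. In unimmunized mouse 1 MSM-like cells held 25.6% of all C1qa UMIs, while over all mice they held 1.64% and other macrophage-like cells 25.1%.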
